A study of Arabidopsis thaliana with 15 samples.

Results

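Expansins, endoglucanases of glycoside hydrolase family 9 (GH9) and xyloglucan endotransglucosylase/hydrolases (XTH) act on the primary cell wall. They were followed here while disks of Arabidopsis leaf formed xylem in culture. The members are the probe sets whose single annotated gene symbol begins with EXPA, EXPB, EXLA, EXLB, GH9, XTH or XTR. This gave 42 probe sets for 42 loci, of 22746 probe sets on the array and of 13513 that are annotated with 1 gene. They comprise 18 expansins and expansin-like genes (10 EXPA, 4 EXPB, 3 EXLA and 1 EXLB), 15 GH9 genes and 9 XTH genes, and 0 under the older symbol XTR. The annotation table gives these families under these symbols only in part, and genes it does not list are not analysed here. A further 4 probe sets that are annotated with several genes of these families are not members, and all 4 were dim.

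The growing plant wall is a network of cellulose microfibrils coated and joined by xyloglucan and embedded in pectin. Expansins loosen this network without cutting its chains, the alpha (EXPA) and beta (EXPB) groups being those with known wall-loosening activity, while no such activity has been shown for the expansin-like EXLA and EXLB proteins. GH9 enzymes hydrolyse beta-1,4-glucan chains. XTH enzymes cut xyloglucan and rejoin it to another chain, or in a few members hydrolyse it. In developing vessels and tracheids these proteins belong to the phase of cell expansion before the secondary wall is laid down, and some act in later wall remodelling.

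Disks of 1 mm diameter from rosette leaves of 25-day-old plants of the ecotype Col-0, grown on MS medium in continuous light, were cultured with 2,4-D, a synthetic auxin, at 1.25 mg/L, kinetin, a cytokinin, at 0.25 mg/L and bikinin, an inhibitor of the GSK3-like kinases that restrain brassinosteroid signalling, at 10 µM. RNA was taken at 0, 12, 24, 36 and 48 h, with 3 arrays per time and 15 in all. All 3 compounds were present together and no disks cultured without them are among the samples, so the effects of the compounds, of cutting, of culture and of time cannot be told apart. The titles number the arrays but do not say that they came from separate cultures. A p-value here therefore sets a difference of means only against the spread among these 15 arrays, which can be technical. The third array of 36 h has no number in its title and is called replicate 3 here.

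Each array gives 1 signal per probe set on a linear scale, set to the same trimmed mean of 500.0, and their number, 3 per time, limits the precision. In log2 signal, the correlation between 2 arrays was 0.886 to 0.954 within a time and 0.562 to 0.707 between 0 h and a later time. Across all probe sets tested the median signal at 36 and 48 h lay 0.15 and 0.19 log2 units above that at 0 h. The leaf label was checked with 5 markers of photosynthetic cells (LHCB4.2, PSAN, HPR, PRK and RCA), whose summed signal was 113406 to 144760 at 0 h, the first being a light-harvesting protein and the last Rubisco activase. In bulk tissue, fewer cells of a type and less RNA per cell cannot be told apart.

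Of the 42 members, 31 passed the filter on low signals, which asked for a mean signal of at least 30.7 at 1 or more times: 12 expansins, 12 GH9 and 7 XTH genes. The 11 that did not were EXLA3, EXPA7, EXPA18, EXPA21, EXPA24, EXPB5, GH9A4, GH9B11, GH9C1, XTH21 and XTH26. Their highest means over the 5 times were 3.75 to 29.1, 5 of them exceeded 30.7 on at least 1 array, and the highest single value was 59.2. EXPA7 and EXPA18 are known from root hairs. In a fit without the filter, limma called EXPA7 lower at 24 and 48 h than at 0 h (log2 -3.30 and -2.86, adjusted p = 0.00862 and 0.0161), from means of 2.92 and 3.96 at those times and 28.7 at 0 h. Without replicate 2 of 0 h, the lowest 0 h array (14.5, beside 31.7 and 51.2), EXPA7 passed the filter through 0 h alone. It was then called lower at 24, 36 and 48 h (log2 -3.79, -2.64 and -3.35). Both the array left out and the filter favour such calls, so they are not support for a fall. GH9B17, at 30.8, lay just inside the limit, and EXPA18, at 29.1, just outside. Of the 31, 8 passed only through a later time, their mean at 0 h being lower than the limit, and EXLB1, GH9B16 and GH9C3 passed only through 0 h. For the former the filter favours calls of higher, and for the latter calls of lower. Counts and medians over the 31 are therefore description. Signals of different probe sets are not compared, since each has its own response.

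Most members that changed after 0 h were higher, and most of those were already higher at 12 h. By limma with Benjamini-Hochberg adjustment over all 17829 probe sets tested (called at an adjusted p under 0.05), 11 of the 31 members were higher and 2 lower at 12 h than at 0 h, where 23.7% of all probe sets were called higher and 21.9% lower. At 24 h, 10 were higher and 5 lower (27.4% and 22.2% of all probe sets). Under quantile normalization this split was 10 higher and 3 lower. At 36 h, 15 were higher and 3 lower (32.3% and 23.9%), and at 48 h, 15 were higher and 2 lower (33.3% and 23.7%). The median member differed from 0 h by 0.81, 0.76, 1.48 and 1.63 log2 units at 12, 24, 36 and 48 h, beside -0.03, 0.07, 0.18 and 0.22 over all probe sets. The F test over the 5 times called 20 of the 31 members, and 60% of all probe sets. These comparisons share the 0 h arrays.

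**Figure D1:**
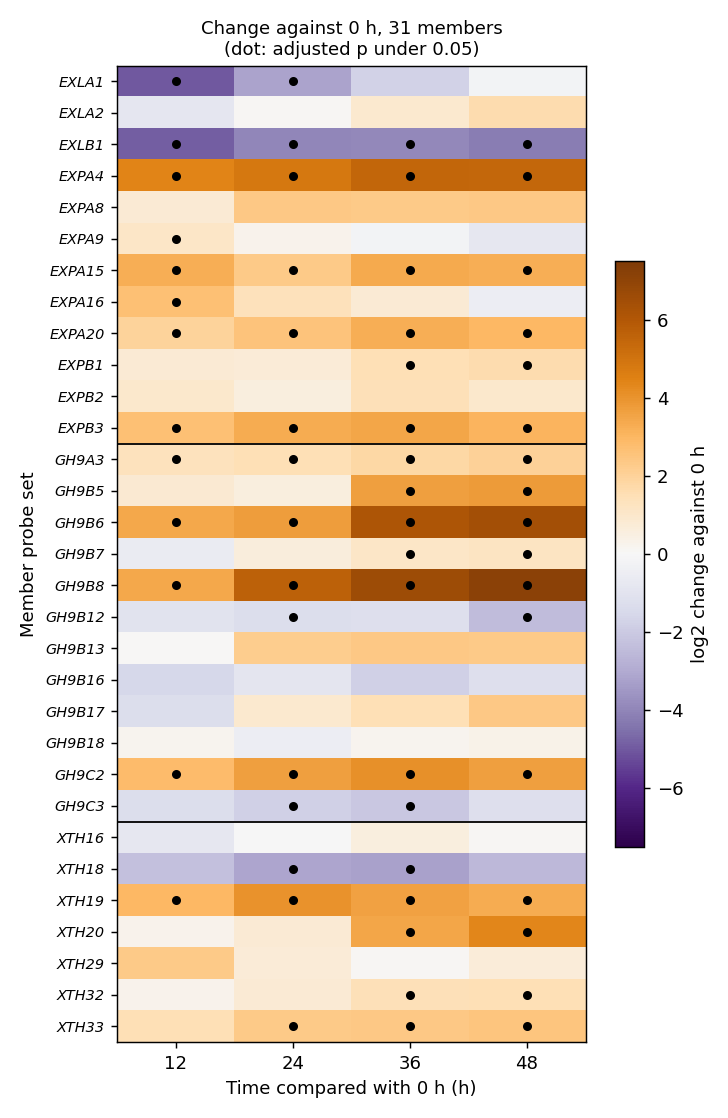
Log2 change of the 31 members that passed the filter at 12, 24, 36 and 48 h against 0 h (columns), with orange for higher, purple for lower and a dot where the adjusted p was under 0.05. The rows are ordered by family, expansins above GH9 above XTH, and 10 members carry a dot at all 4 times, a share not counted over all probe sets.

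Of the members called against 0 h, 11 were first called higher at 12 h: EXPA4, EXPA9, EXPA15, EXPA16, EXPA20, EXPB3, GH9A3, GH9B6, GH9B8, GH9C2 and XTH19. XTH33 was first called higher at 24 h, and EXPB1, GH9B5, GH9B7, XTH20 and XTH32 at 36 h. The time of a first call is not a time of onset, since no member was called between neighbouring later times. XTH33, for example, had means of 22.2, 61.7 and 113 at 0, 12 and 24 h. The F test over the 5 times did not call EXPB1, XTH18 or XTH33 (adjusted p = 0.0866, 0.159 and 0.0774). EXLA1 and EXLB1 were first called lower at 12 h, and GH9B12, GH9C3 and XTH18 at 24 h. A further 9 members were called at none of the 4 times, namely EXLA2, EXPA8, EXPB2, GH9B13, GH9B16, GH9B17, GH9B18, XTH16 and XTH29. Of these, EXPA8, EXPB2, GH9B13, GH9B17 and XTH29 were called at some time against 0 h under at least 1 alternative, as given with each gene. Called at all 4 times were 5 expansins, 4 GH9 genes and 1 XTH gene. Of all probe sets 45.6%, 49.6%, 56.2% and 57% were called in either direction at 12, 24, 36 and 48 h. The shares of all probe sets called at all 4 times, at none or first at a given time were not counted. The member counts by number of times and by first call are therefore description.

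Most alpha-expansins tested were called higher at 12 h, and 4 of the 10 were too dim to test. At 12 h, 5 of the 6 EXPA genes tested were higher than at 0 h, where 23.7% of all probe sets were. The 12 h calls of EXPA9 and EXPA20 were lost without some single arrays, as given below. At each of 24, 36 and 48 h, 3 of the 6 were higher (27.4%, 32.3% and 33.3% of all probe sets). At the 4 times 0 were lower, where 21.9%, 22.2%, 23.9% and 23.7% of all probe sets were. EXPA4 (AT2G39700) had signals of 269, 221 and 224 at 0 h, 8744, 4390.2 and 3552 at 12 h, and 7341, 7605 and 5369 at 24 h. At 36 h its signals were 10107, 10126 and 12108, and at 48 h 10719, 10264 and 9928. Every later array lay far above every 0 h array, and the arrays of 36 and 48 h also lay above those of 12 h and 24 h. Its change against 0 h was 21.7-fold at 12 h and 43.4-fold at 48 h (log2 4.44 and 5.44, SE 0.29, adjusted p = 8.27e-07 and 1.10e-07 by limma, n = 3 arrays each). Between 48 h and 12 h it was higher by 1.00 log2 unit (adjusted p = 0.0235). That call was lost without replicate 2 or 3 of 12 h (0.89 and 0.73), without replicate 1, 2 or 3 of 48 h (0.97, 1.00 and 1.03), with arrays centred on their medians (0.73) and with only those 2 times fitted.

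EXPA15 (AT2G03090) was also higher at each later time. Its means were 152, 1445, 743, 1574 and 1442 at the 5 times in order, a change of 9.50-fold at 12 h and 9.48-fold at 48 h (log2 3.25 and 3.24, SE 0.37). The 3 arrays of 24 h, at 841, 685 and 711, overlapped those of 12 h, at 2496, 1604 and 753, and the step between these times was not called (log2 -0.96, adjusted p = 0.221 by limma). EXPA20 (AT4G38210) had means of 30.5, 121, 177, 295 and 239 at the 5 times and was called higher at each of the 4 later ones. Its 12 h change, log2 1.99, was no longer called without replicate 2 of 0 h (1.33) or replicate 1 of 12 h (1.42), nor with only these 2 times fitted.

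EXPA16 and EXPA9 were highest at 12 h and lower again by 48 h. EXPA16 (AT3G55500) had signals of 40.1, 113 and 202 at 0 h, 1161, 375 and 528 at 12 h, 188, 126 and 650.1 at 24 h, 137, 127 and 276 at 36 h, and 49.0, 69.6 and 101 at 48 h. The 12 h arrays lay above all those of 0 h and of 48 h, which overlapped each other. At 12 h it was 6.30-fold higher than at 0 h (log2 2.66, SE 0.69, adjusted p = 0.00736 by limma), and at 48 h it was lower than at 12 h by a log2 of -3.13 (adjusted p = 0.00606). EXPA9 (AT5G02260) had means of 116, 249, 141, 101 and 68.1 at the 5 times. It was lower at 48 h than at 12 h (log2 -1.87, adjusted p = 0.00668 by limma). Its 12 h change, log2 1.1 (adjusted p = 0.0492), was lost when any of 11 of the 15 arrays was left out (0.66 to 1.17, the lowest without replicate 1 of 12 h), with arrays centred on their medians, without the filter and with only these 2 times fitted.

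EXPA8 (AT2G40610) had its highest mean at 24 h and was not called at any time. Its signals were 749, 1046 and 458 at 48 h, against 532, 31.7 and 162 at 0 h (log2 2.34, SE 0.98, adjusted p = 0.0573 by limma). The 0 h arrays spread widely, and replicate 1 of 0 h lay above replicate 3 of 48 h. With 16 added to each signal limma called it higher at 24, 36 and 48 h (log2 2.14, 2.12 and 2.12, adjusted p = 0.0474, 0.0445 and 0.0435). These 3 comparisons were also called without replicate 1 of 0 h (3.32, 3.30 and 3.31) and without replicate 3 of 12 h, and those of 36 and 48 h under the stricter filter and without replicate 2 of 12 h.

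Among the beta-expansins EXPB3 was higher from 12 h on. EXPB3 (AT4G28250) had signals of 166, 89.4 and 122 at 0 h, 2131, 802 and 269 at 12 h, and 1497, 1457 and 835 at 24 h. At 36 h it had 1361, 1491 and 1247, and at 48 h 928, 1247 and 899.7. The 12 h arrays spread from 269 to 2131 and still lay above all 0 h arrays, while those of 36 and 48 h lay close together. It was 6.32-fold higher at 12 h and 8.31-fold higher at 48 h than at 0 h (log2 2.66 and 3.05, SE 0.56, adjusted p = 0.00193 and 5.55e-04 by limma). EXPB1 (AT2G20750) had means of 40.4, 69.4, 68.5, 113 and 125 at the 5 times and was called higher at 36 and 48 h (log2 1.48 and 1.63, SE 0.53). At 36 h the call was lost without replicate 1, 2 or 3 of 0 h (1.56, 1.48 and 1.41) or replicate 1 or 3 of 36 h (1.34 and 1.09), with arrays centred on their medians (1.29) and with the replicate number as a block (1.06, adjusted p = 0.103). In that block the unnumbered replicate 3 of 36 h had a level of its own, so it had no part in the 36 h estimate. At 48 h the call was lost without replicate 3 of 0 h (1.56) or replicate 1 of 48 h (1.30). EXPB2 (AT1G65680), with means of 14.4 to 39.6, was not called, except at 36 h without replicate 3 of 0 h (log2 2.48, adjusted p = 0.0270 by limma).

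Both expansin-like genes called against 0 h were lower at 12 h, and they differed in what came after. EXLA1 (AT3G45970) had signals of 468, 2994 and 2804 at 0 h, and 59.1, 38.9 and 49.7 at 12 h. It then had 171, 266 and 117 at 24 h, 556, 589.9 and 332 at 36 h, and 3962, 922 and 665 at 48 h. All arrays of 12 and 24 h lay below all arrays of 0 h, and those of 48 h overlapped those of 0 h. EXLA1 was lower at 12 h by a log2 of -5.02 and at 24 h by -3.18 (SE 0.73, adjusted p = 1.31e-04 and 0.00317 by limma), and at 48 h its change against 0 h was -0.23 and not called (adjusted p = 0.803). Between 48 h and 12 h it was 27.7-fold higher (log2 4.79, adjusted p = 6.96e-04). Its 36 h change of -1.73 was uncalled (adjusted p = 0.0622), but was called with 16 added to each signal (-1.70) and without replicate 1 of 0 h (-2.60) or of 48 h. The sign of the 48 h value against 0 h turned when replicate 2 or 3 of 0 h, or 2 or 3 of 48 h, was left out (0.04 to 0.28).

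EXLB1 (AT4G17030) was called lower at each later time, though it passed the filter through 0 h alone, which favours such calls. Its signals were 2.42 to 45.8 over the 12 arrays of the later times, against 653, 503 and 217 at 0 h. The lowest 0 h array lay above every later one. Its change against 0 h was log2 -4.88 at 12 h and -4.21 at 48 h (SE 0.82, adjusted p = 3.72e-04 and 8.48e-04 by limma). Since its later means, 14.0 to 27.4, lay below the filter limit, the size depends on dim signals: with 16 added to each signal it was -3.59 at 12 h and -3.49 at 48 h. EXLA2 (AT4G38400) had means of 38.8, 21.5, 41.7, 72.9 and 117 and was not called.

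**Figure D2:**
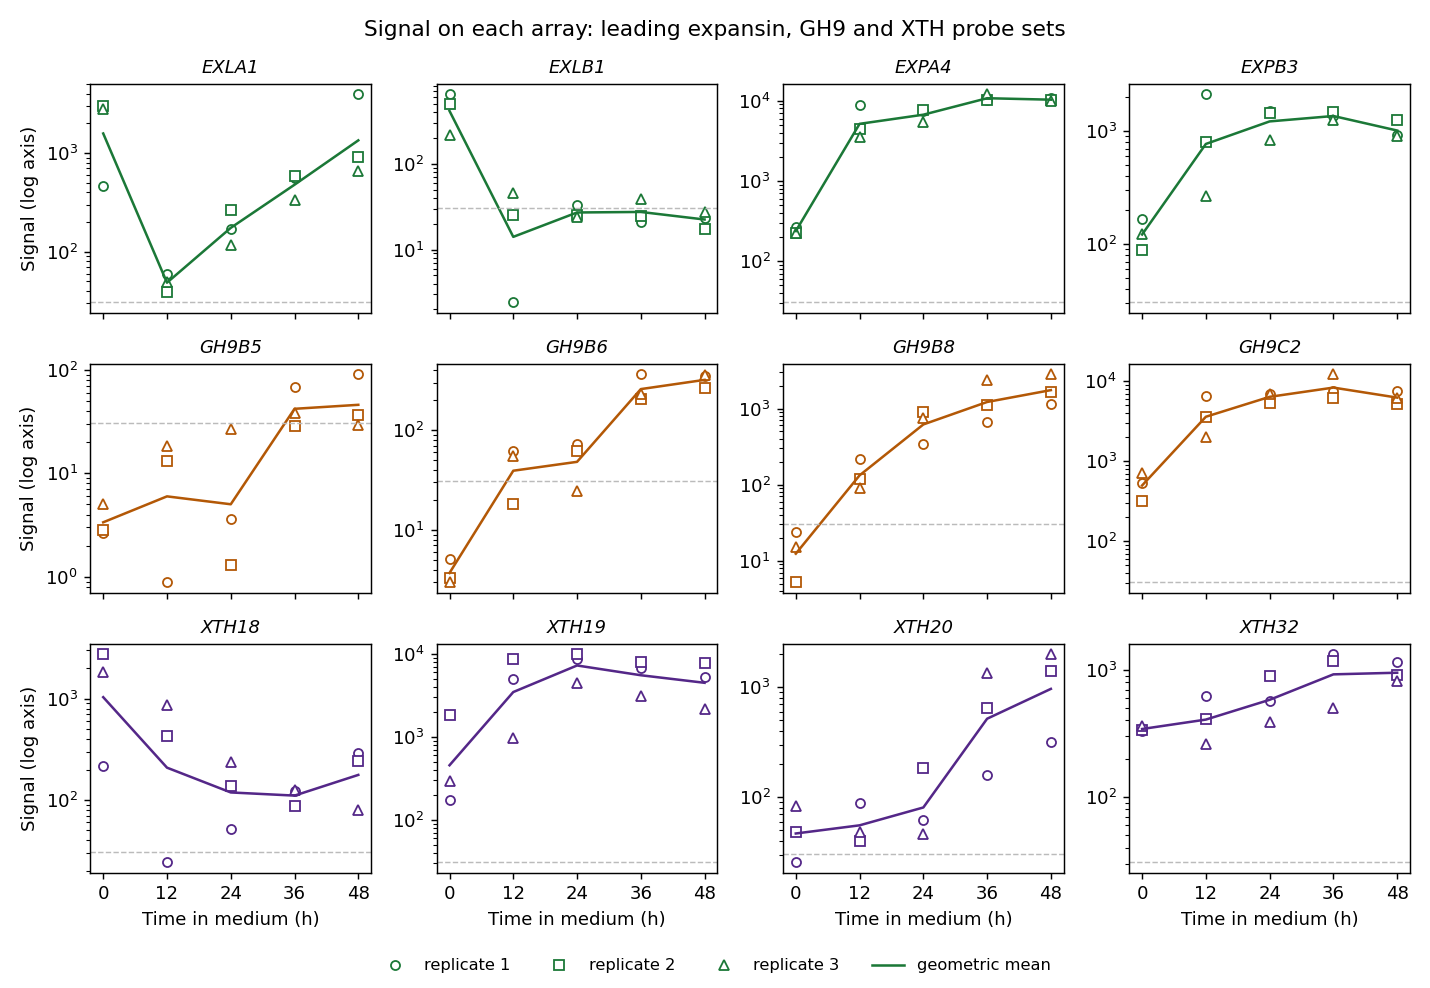
Signal on each of the 15 arrays (log axis, a separate scale per panel) against time in the medium in h for 12 members, with circles, squares and triangles for replicates 1, 2 and 3 and a line through the geometric means; the dashed grey line is the filter limit of 30.7. EXPA4, EXPB3 and GH9C2 lie high from 12 h, XTH20 and GH9B5 only from 36 h, and the 48 h arrays of EXLA1 overlap its 0 h arrays.

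GH9 genes were called higher in 4, 4, 6 and 6 of the 12 tested at 12, 24, 36 and 48 h against 0 h, and lower in 0, 2, 1 and 1, where 23.7%, 27.4%, 32.3% and 33.3% of all probe sets were higher and 21.9%, 22.2%, 23.9% and 23.7% lower. Their higher share at 12 and at 24 h was 33.3%. Their median change was 0.10, 0.76, 1.64 and 2.15 log2 units at these times. GH9B8 (AT2G32990), of the secreted class B, had the widest range of means among the 31 members. Its signals were 23.7, 5.22 and 15.4 at 0 h, 218, 119 and 89.7 at 12 h, and 345, 915 and 747 at 24 h. At 36 h they were 675, 1129 and 2377, and at 48 h 1132, 1657 and 2838. The arrays of 0, 12 and 24 h did not overlap one another, whereas those of 36 h overlapped both 24 h and 48 h. Against 0 h it was 10.7-fold, 49.8-fold, 98.3-fold and 141-fold higher at the 4 later times (log2 3.42, 5.64, 6.62 and 7.14, SE 0.63, adjusted p between 7.55e-04 and 2.43e-06 by limma). The 0 h signals were below the filter limit, and with 16 added to each signal these folds were 5.02, 21.3, 41.5 and 59.2. At 48 h it was 13.2-fold higher than at 12 h (log2 3.72, adjusted p = 0.00129).

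GH9B6 (AT1G23210), also of class B, had signals of 5.15, 3.30 and 2.98 at 0 h, 61.4, 18.0 and 54.8 at 12 h, and 73.6, 62.4 and 24.4 at 24 h. It then had 366, 206 and 230.1 at 36 h, and 349, 264 and 357 at 48 h. The values fall into 3 levels that do not overlap, with 0 h lowest, 12 and 24 h between and 36 and 48 h highest. The change against 0 h was log2 3.41 at 12 h and 6.44 at 48 h (SE 0.50, adjusted p = 1.32e-04 and 1.03e-06 by limma). With 16 added to each signal these were 1.53 and 4.09. Between 48 h and 12 h it was higher by log2 3.03 (adjusted p = 0.00109). The step at 36 h against 24 h, log2 2.42, was not called (adjusted p = 0.0837), but it was with 16 added to each signal (2.07, adjusted p = 0.0238).

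GH9B5 (AT1G19940) was near the bottom of the scale until 36 h. Its signals were 2.68, 2.84 and 5.00 at 0 h, 0.884, 13.3 and 18.3 at 12 h, 3.65, 1.29 and 26.9 at 24 h, 67.8, 28.9 and 38.0 at 36 h, and 91.2, 36.3 and 29.4 at 48 h. The arrays of 36 and 48 h lay above all earlier ones. The change was log2 3.64 at 36 h and 3.77 at 48 h against 0 h (SE 1.15, adjusted p = 0.0168 and 0.0137 by limma), and 1.59 and 1.70 with 16 added to each signal. Each call was lost without replicate 1 of the later time (3.30 and 3.28). At 48 h against 12 h the change of 2.94 was uncalled (adjusted p = 0.0776), but was called with 16 added (1.30) and without replicate 3 of 24 h. GH9B7 (AT1G75680) started from a higher signal of its own, with means of 1113, 729, 1729, 2335 and 2582 at the 5 times. It was called higher at 36 and 48 h against 0 h (log2 1.07 and 1.21, SE 0.30) and at 48 h against 12 h (1.82, adjusted p = 0.00115 by limma).

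GH9C2 (AT1G64390) belongs to class C, whose proteins carry a carbohydrate-binding module. Its signals were 537, 323 and 717 at 0 h, 6513, 3636 and 1992 at 12 h, and 7011, 5441 and 6909 at 24 h. At 36 h they were 7604, 6235 and 12357, and at 48 h 7578, 5194 and 6265. All later arrays lay above all 0 h arrays, and the later times overlapped one another. It was 7.24-fold higher at 12 h and 12.6-fold higher at 48 h than at 0 h (log2 2.86 and 3.65, SE 0.42, adjusted p = 1.34e-04 and 1.67e-05 by limma). GH9A3 (AT4G24260), the membrane-anchored KORRIGAN3, had means of 44.0, 112, 124, 149.7 and 177 and was called higher at each later time. At 48 h its change was 4.03-fold (log2 2.01, SE 0.40). The 12 h call, log2 1.34, was lost without replicate 2 of 0 h (1.09) or replicate 1 of 12 h (1.11).

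A pair of GH9 genes were called lower, from means of 62.6 and 36.4 at 0 h. GH9B12 (AT2G44570) had means of 62.6, 31.4, 26.5, 27.6 and 11.6 at the 5 times and was lower at 48 h (log2 -2.44, SE 0.48, adjusted p = 9.25e-04 by limma, and -1.46 with 16 added). Its call at 24 h (-1.24, adjusted p = 0.0480) was lost without any of 10 arrays and without the filter. Its call at 48 h against 12 h (-1.44, adjusted p = 0.0433) was also lost without any of 10 arrays, with the value -0.80 without replicate 2 of 48 h and -0.72 with 16 added. At 36 h its change of -1.18 was uncalled (adjusted p = 0.0523), but was called under quantile normalization (-1.14), with arrays centred on their medians (-1.37), with 16 added (-0.86), without replicate 2 of 0 h (-1.51) or 3 of 36 h (-1.44), or without any 1 of the 48 h arrays. At 12 h it was called with 16 added (-0.75) and without replicate 2 of 48 h. GH9C3 (AT4G11050) had means of 36.4, 15.3, 10.4, 8.52 and 16.2. It was lower at 24 and 36 h (log2 -1.81 and -2.10, SE 0.56), and with 16 added by -0.90 and -1.09. GH9C3 passed the filter through 0 h alone, which favours calls of lower, so its calls are not support for a fall. The 24 h call was lost without replicate 3 of 24 h (-1.03), under quantile normalization (-1.63) and with only these 2 times fitted. At 12 and 48 h its changes of -1.26 and -1.17 were uncalled (adjusted p = 0.0841 and 0.0897), but both were called with 16 added (-0.75 and -0.70), with only the compared times fitted and without replicate 3 of 24 h.

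The neighbours GH9B16, GH9B17 and GH9B18 lie side by side on chromosome 4. GH9B16 had means of 9.73 to 34.1 and GH9B18 of 35.5 to 63.3, and both were uncalled. Both GH9B16 and GH9B17 exceeded the filter limit at 1 time only. GH9B17 (AT4G39000) was higher at 48 h than at 12 h, with signals of 50.3, 38.0 and 15.2 against 1.94, 1.79 and 4.56 at 12 h (log2 3.61, SE 1.00, adjusted p = 0.0195 by limma, and 1.36 with 16 added). Against 0 h its 48 h change, log2 2.35, was uncalled (adjusted p = 0.0614), but was called with the replicate number as a block (adjusted p = 0.0222) and without replicate 2 of 36 h (0.0413).

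GH9B13 (AT4G02290) had signals of 36.3, 43.7 and 31.4 at 0 h, 120.2, 122 and 3.43 at 12 h, and 378, 105 and 124 at 24 h. At 36 h it had 233, 188 and 158, and at 48 h 291, 176 and 112. All arrays of the last 3 times lay above all 0 h arrays, and replicate 3 of 12 h lay below every other array. It was not called in the fit of all 15 arrays (log2 2.21, 2.38 and 2.29 at 24, 36 and 48 h, SE 1.07, adjusted p = 0.105, 0.0754 and 0.0848 by limma). These 3 comparisons were called with 16 added (1.83, 1.97 and 1.89, adjusted p = 0.0283, 0.0177 and 0.0211), with only the compared times fitted and without replicate 3 of 12 h (adjusted p = 0.00191, 0.00101 and 0.00130). Without that array the 12 h change, 0.01 with it, was also called (1.72, adjusted p = 0.0183).

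XTH genes were called higher in 1, 2, 4 and 4 of the 7 tested at 12, 24, 36 and 48 h against 0 h, and lower in 0, 1, 1 and 0. In percent, 14.3% and 28.6% were higher at 12 and 24 h, where 23.7% and 27.4% of all probe sets were, and 57.1% at each of 36 and 48 h, where 32.3% and 33.3% were. Their median change was 0.25, 0.76, 1.43 and 1.47 log2 units. XTH19 and XTH20, reported to act in the reunion of cut Arabidopsis stems, were called higher from 12 h and from 36 h on. XTH19 (AT4G30290) had signals of 173, 1837 and 295 at 0 h, 4975, 8657 and 972 at 12 h, and 8679.5, 9968 and 4426 at 24 h. It had 6808, 7945 and 3139 at 36 h, and 5338, 7753 and 2185 at 48 h. Replicate 2 was the highest and replicate 3 the lowest at each later time, and replicate 2 of 0 h lay above replicate 3 of 12 h. The change was 7.64-fold at 12 h, 16-fold at 24 h and 9.88-fold at 48 h (log2 2.93, 4.00 and 3.30, SE 0.92, adjusted p = 0.0198, 0.00304 and 0.00833 by limma). The 12 h call was lost without replicate 1 or 3 of 0 h (2.24 and 2.62) or replicate 1 or 2 of 12 h (2.67 and 2.27), and with only these 2 times fitted.

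XTH20 (AT5G48070) had signals of 25.6, 48.5 and 82.5 at 0 h, 88.0, 40.3 and 48.2 at 12 h, and 61.4, 184 and 46.4 at 24 h. At 36 h they were 158, 649 and 1342, and at 48 h 318, 1412 and 1999. The first 3 times overlapped, and every 36 and 48 h array lay above them except for replicate 1 of 36 h, which lay below replicate 2 of 24 h. It was 11-fold higher at 36 h and 20.6-fold higher at 48 h than at 0 h (log2 3.46 and 4.37, SE 0.85, adjusted p = 0.00414 and 8.70e-04 by limma), and 17.4-fold higher at 48 h than at 12 h (adjusted p = 0.00423). At 12 h its change was 0.25 and uncalled (adjusted p = 0.837). The difference in time between XTH19 and XTH20 was not tested.

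XTH32 (AT2G36870), of the group predicted to hydrolyse xyloglucan, had signals of 329, 336 and 364 at 0 h, 627, 409 and 262 at 12 h, and 564, 902 and 386 at 24 h. It had 1330.2, 1181 and 498 at 36 h, and 1153, 908 and 817 at 48 h. The arrays of 36 and 48 h lay above all 0 h arrays but overlapped those of 24 h. It was 2.69-fold higher at 36 h and 2.77-fold at 48 h than at 0 h (log2 1.43 and 1.47, SE 0.42, adjusted p = 0.0114 and 0.00952 by limma). The 36 h call was lost without replicate 1 of 36 h (1.16). Between 48 h and 12 h it was higher by 1.22 (adjusted p = 0.0475), a call lost without any of 10 arrays (0.91 to 1.33), under quantile normalization (1.1), with arrays centred on their medians (0.95), without the filter and with only these 2 times fitted.

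XTH33 (AT1G10550) had means of 22.2, 61.7, 113, 114 and 123 and was called higher at 24, 36 and 48 h (log2 2.34, 2.36 and 2.47, SE 0.82, adjusted p = 0.0316, 0.0276 and 0.0219 by limma). The 24 h call was lost without replicate 1 or 2 of 0 h (2.32 and 1.56) or of 24 h (1.67 and 2.30), and with only these 2 times fitted. The 36 h call was lost without replicate 1 or 2 of 0 h (2.33 and 1.58) or replicate 1 of 36 h (1.81), and with only these 2 times fitted. The 48 h call was lost without replicate 1 or 2 of 0 h (2.44 and 1.69) or of 48 h (2.13 and 2.45). At 12 h its change of 1.47 was uncalled, but was called without replicate 3 of 0 h (2.28, adjusted p = 0.0377 by limma). XTH16, with means of 131 to 328, was not called.

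XTH29 (AT4G18990) had its highest mean at 12 h, with signals of 21.3, 131 and 243 at 12 h, against 5.49, 32.5 and 31.9 at 0 h. Each 12 h array lay above the 0 h array of the same number, while replicate 1 of 12 h lay below 2 of the 0 h arrays. The change was log2 2.30 and uncalled (SE 1.00, adjusted p = 0.0787 by limma). It was called with the replicate number as a block (2.30, adjusted p = 0.00723), under quantile normalization (2.58, adjusted p = 0.0392), with 16 added (1.61, adjusted p = 0.0471) and without replicate 1 of 12 h (3.32, adjusted p = 0.0160).

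XTH18 (AT4G30280) is the neighbour of XTH19 on chromosome 4 and belongs to the same closely related subgroup, and it was called in the opposite direction. Its signals were 218, 2760.4 and 1844 at 0 h, 24.2, 429 and 872 at 12 h, 51.7, 138 and 235 at 24 h, 123, 87.2 and 125 at 36 h, and 290.2, 242 and 78.8 at 48 h. Replicate 1 of 0 h lay far below the other 0 h arrays and overlapped the later ones. It was lower than at 0 h at 24 h (log2 -3.13, SE 1.22, adjusted p = 0.0496 by limma) and at 36 h (-3.23, adjusted p = 0.0390), and its change at 48 h, -2.55, was not called (adjusted p = 0.0920). At 48 h it was called without replicate 1 of 0 h (-3.67) or of 12 h, and at 12 h, where its change was -2.31, without replicate 1 of 0 h (-3.44) or replicate 3 of 12 h (-3.34). The 24 h call was lost without any of 12 arrays, under quantile normalization (-3.08), without the filter and with only these 2 times fitted. The 36 h call was lost without replicate 2 or 3 of 0 h (-2.52 and -2.81) or replicate 1, 2 or 3 of 36 h (-3.31, -3.06 and -3.32), without the filter and with the replicate number as a block (-2.98, adjusted p = 0.0762). The block also takes replicate 3 of 36 h out of the estimate. The F test over the 5 times did not call XTH18 (adjusted p = 0.159). The difference between the neighbours was not tested, nor was cross-hybridisation between close relatives.

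**Figure D3:**
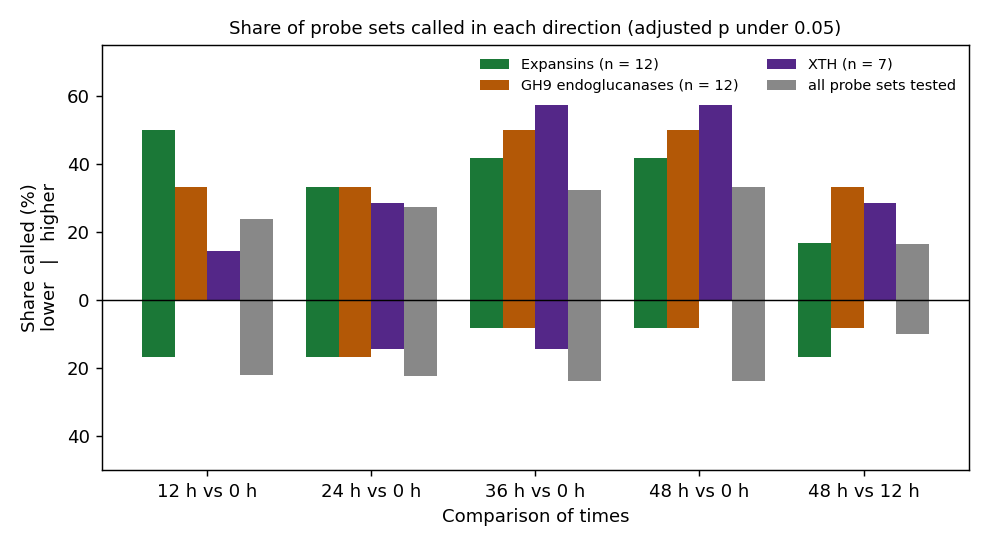
Share of the tested probe sets called higher (bars above 0) or lower (bars below 0), in percent, in the 4 comparisons with 0 h and in 48 h against 12 h, for 12 expansins, 12 GH9 genes, 7 XTH genes and all 17829 probe sets (grey). At 12 h against 0 h, 6 expansins, 4 GH9 genes and 1 XTH gene were higher, and at 48 h against 0 h, 5, 6 and 4 were.

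Counted by class against 0 h, expansins had 6 higher and 2 lower at 12 h, 4 and 2 at 24 h, and 5 and 1 at both 36 and 48 h, with medians of 1.03, 1.06, 1.47 and 1.61 log2 units. Over all probe sets 23.7%, 27.4%, 32.3% and 33.3% were higher and 21.9%, 22.2%, 23.9% and 23.7% lower at these times. GH9 genes had 6 higher at 36 h and 4 at 12 h, and XTH genes had 4 and 1. With 7 to 12 genes a class, a difference between classes was not tested.

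The time of the highest mean was 0 h for 6 of the 31 members, 12 h for 3, 24 h for 2, 36 h for 8 and 48 h for 12. Over all probe sets tested the shares were 35.7%, 17.2%, 11.1%, 12.8% and 23.2%. Highest at 0 h were EXLA1, EXLB1, GH9B12, GH9B16, GH9C3 and XTH18. EXPA9, EXPA16 and XTH29 were highest at 12 h, and EXPA8 and XTH19 at 24 h. At 36 h stood EXPA4, EXPA15, EXPA20, EXPB2, EXPB3, GH9B13, GH9C2 and XTH16. At 48 h stood EXLA2, EXPB1, GH9A3, GH9B5, GH9B6, GH9B7, GH9B8, GH9B17, GH9B18, XTH20, XTH32 and XTH33.

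By class, 5 of 12 expansins were highest at 36 h and 2 at 48 h, whereas 2 of 12 GH9 genes were highest at 36 h and 7 at 48 h, and XTH genes had 1 and 3 of 7. Few of these times stood clear of their neighbours. In 4 of the 31 members (EXLB1, EXPA20, GH9B12 and GH9C3) the 3 arrays of the highest time all lay above all arrays of the next highest, as in 23.5% of all probe sets. Leaving out replicate 1 of 48 h shifted the counts at 36 and 48 h to 13 and 5, against 8 and 12, and leaving out replicate 2 of 36 h shifted them to 13 and 7.

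**Figure D4:**
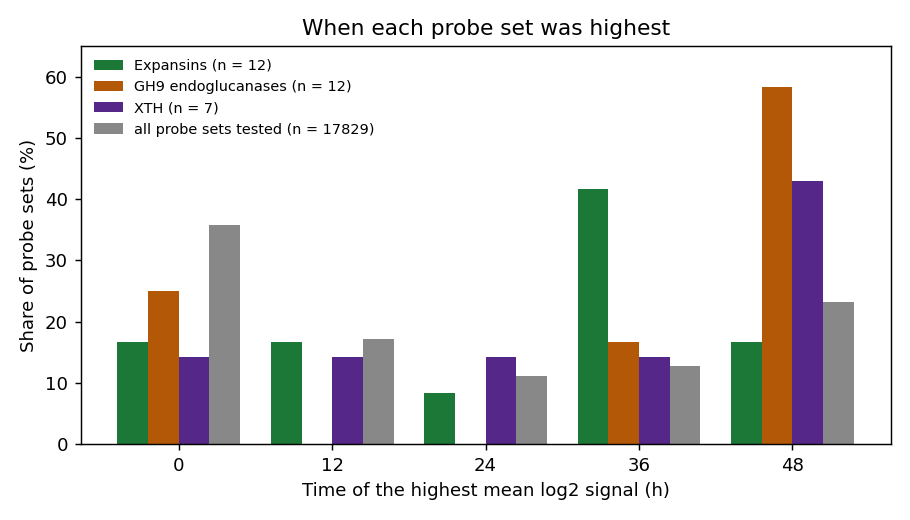
Share of probe sets, in percent, whose highest mean log2 signal fell at each of the 5 times, for 12 expansins, 12 GH9 genes, 7 XTH genes and all 17829 probe sets tested (grey). Of the GH9 genes 58.3% were highest at 48 h, and of the expansins 41.7% at 36 h, while 35.7% of all probe sets were highest at 0 h.

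No member was called by limma between neighbouring later times. At 24 h against 12 h, 0 of the 31 were called (1.23% of all probe sets), and 4 had an unadjusted p under 0.05 (16.5% of all). At 36 h against 24 h, 0 were called (0.112%), and 5 had an unadjusted p under 0.05 (11.8%). At 48 h against 36 h limma called 0 members and 0% of all probe sets, with 1 member and 3.6% of probe sets at an unadjusted p under 0.05. With the replicate number as a block, 0 members were called in these 3 steps, and 2.41%, 0.454% and 0% of all probe sets were. In that fit the steps to and from 36 h used only replicates 1 and 2 of 36 h. GH9B7 at 24 h against 12 h was called under the stricter filter (log2 1.25, adjusted p = 0.0476).

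Over the longer interval from 12 to 48 h, 8 members were higher and 3 lower at 48 h, where 16.5% of all probe sets were called higher and 9.87% lower. The higher ones were EXLA1, EXPA4, GH9B6, GH9B7, GH9B8, GH9B17, XTH20 and XTH32, and the lower ones EXPA9, EXPA16 and GH9B12. By class, expansins had 2 higher and 2 lower, GH9 genes 4 and 1, and XTH genes 2 and 0. The median member changed by 0.85 log2 units, beside 0.05 over all probe sets. With the replicate block 8 were higher and 3 lower. The number higher fell to 5 without replicate 2 of 12 h, or without replicate 1 or 2 of 48 h. EXPA15 (-0.00, SE 0.37), XTH19 (0.37, SE 0.92) and GH9C2 (0.80, SE 0.42) were high at both times and uncalled between them (adjusted p = 0.996, 0.8 and 0.182 by limma). Without replicate 1 of 12 h the change of GH9C2 was called (1.22, adjusted p = 0.0470).

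Genes of related wall processes were sparse in the annotation. Of those that make the xyloglucan on which XTH enzymes act, 4 members of the CSLC family of backbone glucan synthases were tested. At 12, 24, 36 and 48 h, 1, 3, 2 and 2 were higher than at 0 h, with 0 lower. Of all probe sets 23.7%, 27.4%, 32.3% and 33.3% were higher. The 4 did not run alike. CSLC5 had means of 223, 641, 1326, 1644 and 1966 at the 5 times, and CSLC6 had 224, 282, 332, 412 and 372. CSLC04, with 1700, 1976, 2753, 1919 and 1631, and CSLC12, with 35.3, 38.5, 39.0, 23.1 and 27.3, were highest at 24 h. COB, which guides the orientation of cellulose, was higher at 24, 36 and 48 h (log2 0.71, 0.90 and 0.98, SE 0.27). Of 2 tested pectin genes, the putative galacturonosyltransferase GAUT15 was lower at 12 h (log2 -1.60, SE 0.28) and the pectin methylesterase PME61 at 24 h (-1.40, SE 0.55), and neither was called at 36 or 48 h. PME61 was dim, with means of 51.7 at 0 h and 19.6 at 24 h. FER, a receptor kinase that senses the wall, was lower at each later time (-0.84 to -0.69). THE1, the other wall-sensing gene tested, was uncalled, with means of 517, 401, 767, 561 and 528 at the 5 times. The F test over the 5 times called neither PME61 nor FER (adjusted p = 0.178 and 0.0643). The beta-galactosidase BGAL16 was higher at 12 h (0.96, SE 0.19). The single brassinosteroid gene matched, the receptor BRL1, was higher at all 4 times (1.66, 1.55, 2.47 and 2.76, SE 0.37). Secondary wall cellulose synthases were not analysed here. EXGT-A3, the older name of XTH27, which is known from tracheary elements of leaf veins, fell outside the symbol rule, and its means of 3456, 4444, 3026, 3083 and 4765 gave no call by limma at any time against 0 h (adjusted p between 0.212 and 0.665).

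Markers of cell types changed alongside. The 5 photosynthesis markers were all lower in each comparison with 0 h, and their summed signal was 3036 to 5974 at 12 h and 2098 to 3669 at 48 h. The 4 xylem markers tested (IRX15, IRX15-L, GUT2 and PRX52) had summed signals of 311 to 397, 709 to 1281, 408 to 2225, 1851 to 4074 and 3234 to 4287 at the 5 times in order. Of them 1, 2, 4 and 4 were called higher, and they did not run alike. IRX15, IRX15-L and GUT2, all of xylan synthesis, had means of 6.76, 111 and 111 at 12 h, against 6.06, 159 and 155 at 0 h, and were highest at 48 h. PRX52, a peroxidase, had means of 10.7, 669, 613, 292 and 174 at the 5 times, so that the sum at 12 h was mostly PRX52. The 3 markers of dividing cells (AUR1, AUR2 and UBC20) had sums of 266 to 329.98, 346 to 432, 975 to 5544, 4120.1 to 11347 and 7200.5 to 7825. Of these markers 0 were called at 12 h and all 3 at each later time. The 3 procambium and cambium markers (CLE41, CLE44 and MOL1) summed to 2247 to 3155 at 12 h and 3855 to 4313 at 48 h, against 594 to 1445 at 0 h, and 2 of them were called higher at 12 h and all 3 later. The 2 phloem markers ran in opposite directions at all 4 times: SWEET11 was lower, with a mean of 54.1 at 48 h against 5796 at 0 h, and OPS was higher, with 789 against 55.9. Of 3 markers of epidermis and guard cells only FMA passed the filter, and it was lower at 36 and 48 h (log2 -1.35 and -1.94), with means of 111 at 48 h and 425 at 0 h. At 12 h, when 11 of the 31 members were higher, so were 2 of the 3 procambium and cambium markers, 1 of the 4 xylem markers (PRX52) and 1 of the 2 phloem markers (OPS). At that time 0 of the 3 dividing-cell markers were called. Of all probe sets 23.7%, 27.4%, 32.3% and 33.3% were called higher at 12, 24, 36 and 48 h against 0 h, and 21.9%, 22.2%, 23.9% and 23.7% lower. With so few markers in a list, the marker counts are description and show no order of events.

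Within a time, arrays that differed in cell markers also differed in some members. At 36 h the dividing-cell sum was 11347 in replicate 1, 7212 in replicate 2 and 4120.1 in replicate 3. GH9B8 (675, 1129 and 2377) and XTH20 (158, 649 and 1342) ran the other way over these arrays, and XTH32 (1330.2, 1181 and 498) the same way. At 48 h the sums were 7668, 7200.5 and 7825, closer together, and replicate 1 was again lowest for GH9B8 and XTH20. At 12 h replicate 1 was instead the highest for both (218 and 88.0). At 24 h the dividing-cell sums were 5544, 2760 and 975 in replicates 1, 2 and 3. There GH9B8 had 345, 915 and 747, XTH20 61.4, 184 and 46.4, and XTH32 564, 902 and 386. None of these genes followed the order of the 24 h sums or its reverse. The xylem marker sums at 36 h were 3093, 4074 and 1851 in replicates 1, 2 and 3. The part that any of these cell types had in the members' changes was not tested.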

How the data were processed

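Biotin-labelled cRNA of each of 15 samples went onto 1 single-colour Affymetrix array, per the labels' protocols. The authors' deposited intensities are linear; the submitters' processing notes name GCOS and MAS5, and the sources used here give no versions. Every array had the same mean after trimming 2% at each end, so a shift shared by most transcripts would not show.

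From these, log2 values were taken with no offset. The 64 control probe sets were left out, and a probe set was kept where its highest group mean (geometric, 3 arrays) reached percentile 30 of all group means, 30.7, which kept 17829 of 22746. limma 3.58.1 in R 4.3.3 fitted 5 group means over 15 arrays (10 residual degrees of freedom) with two-sided tests, an F test over the 4 contrasts with 0 h and Benjamini-Hochberg adjustment over all kept probe sets. Simulated data with planted changes served as a check.

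Genes were named through the platform annotation (13513 probe sets with 1 gene, 8730 unlisted); loci and neighbours come from the TAIR10.1 gene table. Given in full are EXPA4, GH9B8 and, per class, the 4 members with the widest range of means among those called by the F test. Members, lists and tests were chosen with earlier results of these data known. A planned comparison of promoters and proteins was not made, as no sequences were at hand.

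Whether shared replicate numbers pair the arrays was checked by correlating deviations from group means: 0.147 to 0.449 for 24 and 12 h, 0.126 to 0.199 for 48 and 12 h, 0.292 to 0.496 and 0.324 to 0.476 for the 2 numbered pairs of 36 with 24 h and of 48 with 36 h, and 0.014 to 0.135 for later times and 0 h. The unnumbered 36 h array correlated at 0.550 with replicate 3 of 24 h, 0.463 with replicate 3 of 48 h and 0.106 with replicate 3 of 0 h. With replicates 1 and 2 of those times its correlations were negative. The labels state no pairing. Alternatives were quantile normalization, centring, other filters, an offset of 16, the replicate block, fits of the compared times only and leaving out each array.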

Additional observations from a re-analysis of the deposited data

How the results depend on the processing

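Signals near or below 30.7 limit the folds of dim members, and 3 arrays per time limit all steps between later times. Of members lower at 12 h (2), 4 were lower with 16 added. Of those lower at 24 h (5), 3 were lower under quantile normalization, the stricter filter (a signal of 148) and with only the compared times, and 2 to 4 without 1 array. Lower at 36 h (3) were 5 with 16 added and 2 to 5 without 1 array, and lower at 48 h (2) was 1 under the stricter filter. Probe sets called at 24 h against 12 h (220) numbered 78 without the filter, 430 with the replicate block, 0 with only the compared times and 0 to 336 without 1 array, and 1 member was called under the stricter filter. At 36 h against 24 h (20) they numbered 43 under the stricter filter, 85 with 16 added, when 1 member was called, 81 with the replicate block, 0 with only the compared times and 0 to 63 without 1 array. At 48 h against 12 h the 4707 became 2981 to 5017 without 1 array, and the 8 higher members 5 to 9. The stricter filter kept 20 members and no filter 42, against 31, so their counts cover other members. Members highest at 0 h (6) were 3 and at 48 h (12) 6 under the stricter filter, at 12 h (3) 5 with arrays centred, and at 24 h (2) 6 without the filter; without 1 array those at 24, 36 and 48 h (2, 8 and 12) were 0 to 6, 5 to 13 and 5 to 15. Uncalled values turned sign for EXPA16 at 48 h against 0 h without replicate 3 of 0 h (-1.11 to 0.058 without 1 array), for XTH19 at 48 h against 12 h without replicate 3 of 12 h (-0.55) or 2 of 48 h (-0.02; -0.55 to 1.03 without 1 array), and for EXLA1 at 48 h against 0 h without replicate 2 (0.23) or 3 (0.18) of 0 h or 2 (0.04) or 3 (0.28) of 48 h (-1.11 to 0.28 without 1 array). The cause was not tested. The replicate block ended the 36 h calls of EXPB1 and XTH18 and added calls of XTH29 at 12 h and GH9B17 at 48 h against 0 h, so 12 members were higher at 12 h and 16 at 48 h (11 and 15 without it). Since the block leaves replicate 3 out of the 36 h estimates, pairing and the loss of that array cannot be told apart at 36 h.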
